A study of Mus musculus with 6 samples.

Results

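Malat1, Neat1, Gas5, Snhg1, Snhg3, Snhg5, Snhg8 and Snhg12 are a set of 8 long non-coding RNA genes, comprising a pair of abundant nuclear RNAs and 6 host genes of small nucleolar RNAs (snoRNAs). They were chosen by symbol, not by their values, from the 23420 gene symbols of a count table, and all 8 had a row and passed the filter on low counts. The table holds RNA-seq counts of eEnd2 cells, a line of mouse embryonic endothelial cells, that stably express human integrin β1 fused to GFP. Both groups carry the transfected chimera beside the mouse's own integrin β1, under a short human actin promoter, and were sorted for GFP. In β1-WT-GFP cells the integrin tail is unchanged, and in β1-K794Q-GFP cells it carries the K794Q substitution, which mimics acetylation of that lysine. Each group had 3 cultures, A, B and C, with no further treatment, and the comparison asks how transcript levels differ between the mutant and the wildtype chimera. Untransfected cells were not analysed here, and the sources used here do not say which sorted GFP population each culture came from, nor how many separate transfections lie behind each group.

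Malat1 is a long transcript that stays in the nucleus and gathers in nuclear speckles, the bodies that store splicing factors. Neat1 is the scaffold RNA around which paraspeckles assemble, and its gene neighbours that of Malat1. The genes Gas5 and Snhg carry snoRNAs inside their introns, which are released after splicing and guide the chemical modification of ribosomal RNA: box C/D snoRNAs guide 2′-O-methylation and box H/ACA snoRNAs guide pseudouridylation. The spliced exons that remain are short-lived in many hosts, since translation of their short reading frames exposes them to nonsense-mediated decay, and many of these genes start with a pyrimidine tract like that of ribosomal protein mRNAs.

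The start sites are shown first because that tract is the sequence feature by which host genes are known. Each line gives the 30 bases before and the 30 bases from the annotated start, read along the RNA strand from RefSeq for GRCm38.p6, with capitals marking a C followed by at least 4 further C or T letters that begins within 10 bases of the start. Neat1 has no entry and Gas5 has 2, of which the one with a tract is printed.
Gas5, chr1:161035136-161035195 (+): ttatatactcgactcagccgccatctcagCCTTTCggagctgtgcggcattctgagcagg
Snhg12, chr4:132308648-132308707 (+): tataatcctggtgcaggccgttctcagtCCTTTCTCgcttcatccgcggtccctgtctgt
Snhg8, chr3:123508307-123508366 (-): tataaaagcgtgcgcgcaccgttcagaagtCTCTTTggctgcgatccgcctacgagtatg
Snhg3, chr4:132353657-132353716 (-): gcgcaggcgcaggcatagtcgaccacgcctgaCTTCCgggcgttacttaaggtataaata
Snhg5, chr9:88522868-88522927 (-): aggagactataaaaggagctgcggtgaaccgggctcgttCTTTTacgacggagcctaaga
Snhg1, chr19:8723457-8723516 (+): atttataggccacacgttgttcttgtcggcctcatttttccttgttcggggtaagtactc
Malat1, chr19:5802643-5802702 (-): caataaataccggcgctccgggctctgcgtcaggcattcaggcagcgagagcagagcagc
The tract was found in 5 of the 8 start entries of these genes (62.5%), all of them host genes, against 30.7% of all 32851 entries and 31.9% of the entries of tested genes. Among the protein-coding snoRNA hosts it was found in 7 of 20 entries (35.0%). In Snhg12 and Gas5 the capitals begin 2 bases and 1 base before the annotated start, in Snhg8 they begin on it, and in Snhg5 they begin 9 bases after it. A match describes these letters only.

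The snoRNAs are shown for the 3 hosts that contain a snoRNA row deep enough to be tested, with GENCODE M21 coordinates on GRCm38 and the RNA strand searched. Capitals mark TGATGA in the first part of the gene, the core of box C, CTGA in the last 20 bases, which is box D, or ACA lying 3 bases before the end, the mark of H/ACA snoRNAs.
Snord47, chr1:161038082-161038158 (+): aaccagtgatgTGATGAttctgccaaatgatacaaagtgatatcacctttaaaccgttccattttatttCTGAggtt
Snord22, chr19:8725866-8725991 (+): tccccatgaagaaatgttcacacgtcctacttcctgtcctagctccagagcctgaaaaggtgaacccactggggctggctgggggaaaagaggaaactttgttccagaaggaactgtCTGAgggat
Snora61, chr4:132310240-132310369 (+): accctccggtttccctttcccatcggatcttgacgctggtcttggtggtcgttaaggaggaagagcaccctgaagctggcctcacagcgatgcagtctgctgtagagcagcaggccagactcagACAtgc
Snord47, in an intron of Gas5, holds both boxes within 77 bases. Snord22, in Snhg1, has 126 bases and holds only the CTGA by this search, and Snora61, in Snhg12, has 130 bases and ends with the ACA box. By the same search TGATGA was found in 72 of 97 annotated Snord genes (74.2%), CTGA in 95 of 97 (97.9%) and ACA in 34 of 40 Snora genes (85.0%).

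The depth ranged from 9589826 to 15287191 counts per culture. Among the 12 endothelial markers, 11 were at or above 1 CPM (TMM-normalized count scaled to library size) in every culture, the exception being Cldn5. Of the 5 epithelial markers, Epcam, Krt18 and Cldn4 were at 0 throughout, and Cdh1 and Krt8 reached at most 0.0696 and 0.592 CPM. Of the 6 blood cell markers with a row, Cd68 measured 31.0 to 103 CPM across the cultures. Csf1r stood at 10.7 CPM in culture C of β1-WT-GFP and at 0.385 to 0.774 CPM elsewhere. Ptprc, Cd14, Cd3e and Hba-a1 were at or below 0.493 CPM. Culture C of β1-WT-GFP stood apart from A and B, with 2701 and 2539 of 11608 tested genes at least 2-fold different, against 66 between A and B. Culture B of β1-K794Q-GFP stood apart in the same way, with 2001 and 2562 such genes against A and C, which differed in 903. Fold changes of the 8 genes are therefore given with and without these cultures. Cells of one type becoming fewer and cells holding less of an RNA cannot be told apart in such bulk samples.

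Gas5 was the one gene of the 8 that differed between the groups by the study's criteria, a fold change of at least 2 with an unadjusted p of at most 0.05 in edgeR's quasi-likelihood test. It was lower in β1-K794Q-GFP cells. The same criteria call 5.19% of all tested genes, 1.71% in the lower direction and 3.48% in the higher. Malat1, Neat1, Snhg1, Snhg3, Snhg5, Snhg8 and Snhg12 did not pass them. After Benjamini-Hochberg adjustment over all tested genes, edgeR's test left 0 of the 8 genes at or below 0.05, against 0.181% of all genes, and their adjusted p ranged from 0.418 to 0.956, while 1 of them had an unadjusted p at or below 0.05. DESeq2 likewise put 0 of the 8 at or below an adjusted p of 0.05, with 0.211 as the lowest. The log2 fold change of β1-K794Q-GFP over β1-WT-GFP was negative for 7 of the 8, with a median of -0.54, where the median over all tested genes was -0.02.

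**Figure D1:**
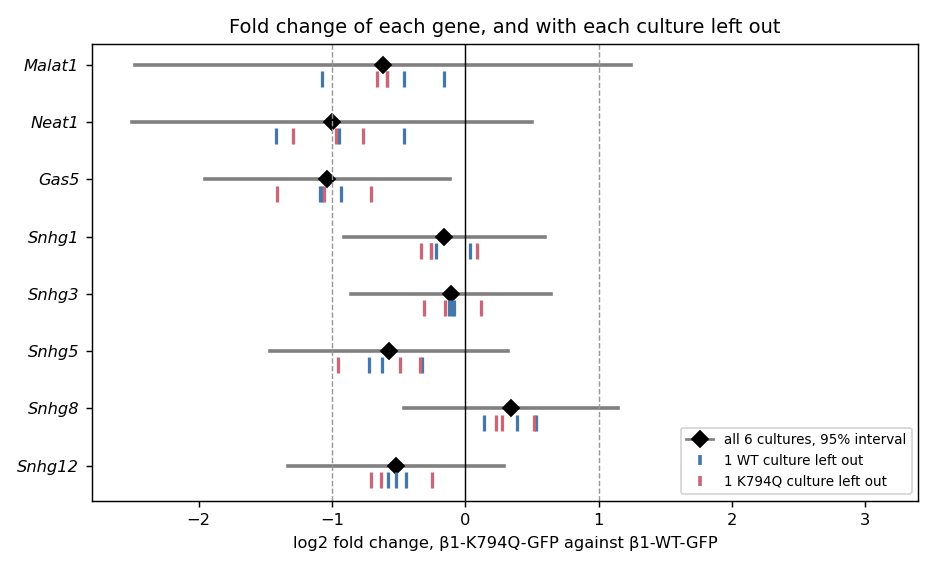
Log2 fold change of β1-K794Q-GFP over β1-WT-GFP cells (x axis) for the 8 genes (y axis), with the 95% interval from edgeR as a bar, the values with 1 culture left out as ticks below it and 2-fold as dashed lines. Gas5 at -1.03 is the one value whose interval, from -1.95 to -0.12, excludes 0, and Snhg8 at 0.34 is the one positive value.

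Malat1 lies on the minus strand of chromosome 19 at chr19:5795690-5802672 (GRCm38), as a lincRNA of 6983 annotated exonic bases. In β1-WT-GFP cells it measured 56428 CPM in culture A, 44260 in B and 8460 in C, and in β1-K794Q-GFP cells 22946, 22913 and 25210 CPM in the same order, which is kept throughout. The 3 mutant cultures lay close together, between wildtype cultures A and B above and wildtype culture C below, so the groups overlapped. The means were 36383 ± 24935 and 23690 ± 1317 CPM (SD, n = 3 each), and edgeR gave a log2 fold change of -0.62 ± 0.77 (SE) with an interval from -2.48 to 1.24 and a Benjamini-Hochberg adjusted p of 0.880.

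Malat1 was the gene with the most counts in wildtype cultures A and B and the second in the other 4. It took 5.91% of all counts in culture A of β1-WT-GFP (95% Wilson interval 5.89% to 5.92%), 4.62% in B (4.60% to 4.63%) and 0.795% in C (0.790% to 0.799%). In the β1-K794Q-GFP cultures it took 2.34%, 2.07% and 2.65%, and these intervals cover counting error only. The spread among wildtype cultures was thus far beyond counting error, since A stood 6.67-fold and B 5.23-fold above C in CPM. Of all tested genes, 10.8% were in culture C at least 2-fold below both other wildtype cultures, as Malat1 and Neat1 were.

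Without culture C of β1-WT-GFP, Malat1 passed both criteria, with a log2 fold change of -1.08 and an unadjusted p of 0.0275 in edgeR. Without mutant culture B as well, it was -1.05 with an unadjusted p of 0.0893 in edgeR and did not pass. Over the 6 fits that each left out 1 culture, its value ran from -1.08 to -0.16. The RNA component of RNase P, Rpph1, whose enzyme cuts the 3′ end of Malat1, was also lowest in wildtype culture C, with 2608, 1146 and 564 CPM in β1-WT-GFP and 3332, 3251 and 1631 CPM in β1-K794Q-GFP, and its own difference of 0.93 ± 0.62 (SE, log2) did not pass the criteria. The difference of Rpph1 was 1.68 without wildtype culture A, with an unadjusted p of 0.0272 in edgeR, which passes them, and 0.42 without wildtype culture C and mutant culture B. Its part in the levels of Malat1 was not tested.

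Neat1 lies upstream of Malat1 on the same strand, at chr19:5824708-5845478, with 22035 bases between its 3′ end and the start of Malat1, and spans 20771 exonic bases. Its levels were 1252, 828 and 230 CPM in wildtype cells and 253, 535 and 369 CPM in mutant cells. As for Malat1, wildtype cultures A and B were the highest and wildtype culture C the lowest of the 6. The mean of 386 ± 141 CPM in mutant cells stood below that of 770 ± 513 CPM in wildtype cells (SD, n = 3 each). On the log2 scale the difference was -0.998 ± 0.62 (SE) with an interval from -2.50 to 0.50 and an adjusted p of 0.693 in edgeR.

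Leaving out wildtype culture C brought Neat1 past both criteria, at -1.42 with an unadjusted p of 0.0117 in edgeR. It stayed past them when culture B of β1-K794Q-GFP was left out as well, at -1.72 with an unadjusted p of 0.00219 in edgeR. Across the 6 cultures the log2 levels of Malat1 and Neat1 moved together, with a Pearson r of 0.874 over 6 cultures that share the chromosomal region and the depth of each library. The quotient of the pair still varied: Neat1 stood at 2.22%, 1.87% and 2.72% of the CPM of Malat1 in β1-WT-GFP and at 1.10%, 2.33% and 1.46% in β1-K794Q-GFP. These groups overlapped through mutant culture B.

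**Figure D2:**
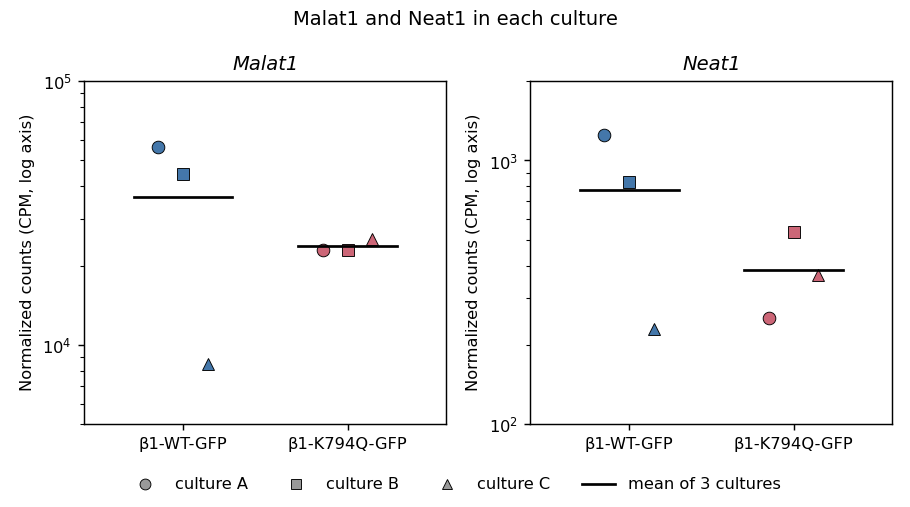
CPM of Malat1 and Neat1 (y axes, log scale) in each of the 6 cultures, by group, with the group mean as a line. In both genes wildtype culture C is the lowest point, at 8460 CPM for Malat1 and 230 CPM for Neat1, and the mutant cultures lie below wildtype cultures A and B.

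Gas5, the growth arrest-specific host of several box C/D snoRNAs, lies on the plus strand at chr1:161034422-161038539 with 3760 exonic bases. It was counted at 1430, 1022 and 1462 reads in the wildtype cultures and at 576, 273 and 909 reads in the mutant cultures. Normalized, these were 125, 102 and 102 CPM against 55.5, 26.9 and 78.2 CPM. Every mutant culture lay below every wildtype culture, as was also the case for Snhg12 among the 8. Groups without overlap were found in 16.6% of all tested genes, 8.12% lower and 8.45% higher in β1-K794Q-GFP.

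The mean of Gas5 fell from 110 ± 13.3 CPM to 53.5 ± 25.7 CPM (SD, n = 3 each). The log2 fold change in edgeR was -1.03 ± 0.38 (SE), with an interval from -1.95 to -0.12, an unadjusted p of 0.0329 and a Benjamini-Hochberg adjusted p of 0.418. A two-sided exact permutation test on the CPM gave p = 0.1, the smallest that 3 against 3 cultures allow. The call of Gas5 was lost in 5 of the 6 fits with 1 culture left out, where its log2 fold change ran from -1.41 to -0.71, and it was kept without culture C of β1-K794Q-GFP. Without wildtype culture C and mutant culture B together it was -0.75 with an unadjusted p of 0.0148 in edgeR, below the criterion of 2-fold. These p-values measure the spread between the cultures sequenced.

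The genes around Gas5 lay lower in β1-K794Q-GFP cells too. Of the 24 nearest tested genes, from 156.7 to 162.7 Mb of chromosome 1, all 24 had a negative log2 fold change, with a median of -0.43. In 13 of them the mutant cultures all lay below the wildtype cultures, beside 8.12% of all tested genes. Ralgps2 (-1.13 ± 0.17), Prdx6 (-2.08 ± 0.78), Tnfsf18 (-1.77 ± 0.63), Mettl13 (-1.03 ± 0.37) and Snord47, inside Gas5 itself, passed both criteria in the lower direction (SE, log2). The same criteria call 1.71% of all tested genes in that direction. With 1 culture left out, the call of Ralgps2 held in all 6 fits, while those of Prdx6, Tnfsf18 and Mettl13 each held in 2. Without wildtype culture C and mutant culture B together, the calls of Prdx6, at -0.66, and Mettl13, at -0.53, were lost. No neighbour passed in the higher direction. For the other 7 genes the median over 24 neighbours lay between -0.08 and 0.13.

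The level of the region is the median, over the 24 nearest tested genes, of the log2 CPM relative to the wildtype mean. It includes Snord47 and leaves out Gas5 itself. This level was -0.06, -0.08 and 0.09 in the β1-WT-GFP cultures and -0.44, -0.62 and -0.55 in the β1-K794Q-GFP cultures. With that level taken into the fit, the log2 fold change of Gas5 was -0.53 with an unadjusted p of 0.201 in edgeR, and Gas5 no longer passed the criteria. Prdx6, a peroxiredoxin, measured 226, 298 and 1605 CPM in β1-WT-GFP and 158, 175 and 169 CPM in β1-K794Q-GFP, and its log2 fold change was -0.64 without wildtype culture C. Ralgps2, a guanine nucleotide exchange factor, separated the groups more tightly, with 54.1, 48.9 and 53.3 CPM against 20.4, 25.4 and 25.5 CPM.

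**Figure D3:**
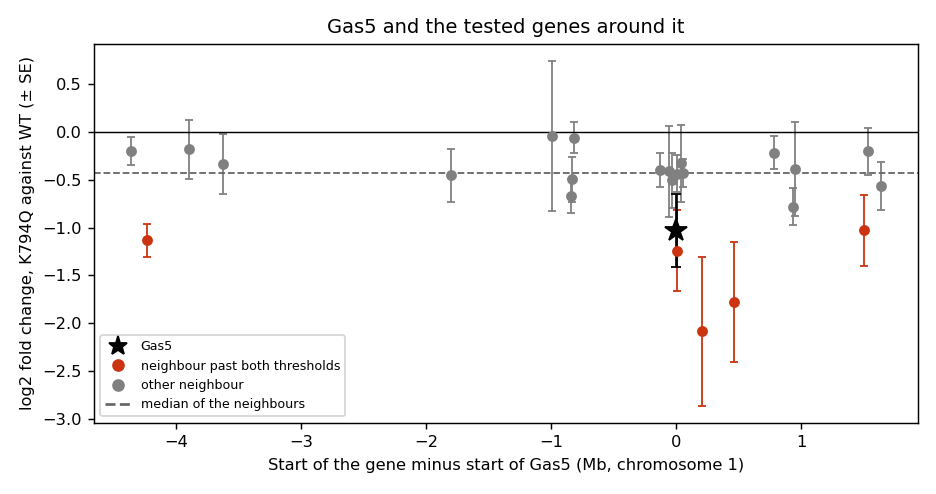
Log2 fold change of β1-K794Q-GFP over β1-WT-GFP cells (y axis, bars are SE) for Gas5, drawn as a star, and the 24 nearest tested genes, by the distance of their starts from that of Gas5 in Mb (x axis). All 24 neighbours lie below 0, the dashed line marks their median of -0.43, and the 5 genes past both criteria are drawn in red.

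Zbtb37, a zinc finger gene on the opposite strand that overlaps the annotated start of Gas5, had 26.2, 22.1 and 17.2 CPM in β1-WT-GFP and 16.3, 10.96 and 18.8 CPM in β1-K794Q-GFP. Its log2 fold change of -0.51 ± 0.28 (SE) did not pass the criteria. The strand setting of the counting was not given in the sources used here, so reads in the overlap cannot be assigned to one strand. Of 11 mesenchymal markers, Prrx1 moved with the group, at 183, 194 and 56.5 CPM in β1-WT-GFP and 0.0963, 0.0987 and 0 CPM in β1-K794Q-GFP. Prrx1 lies on chromosome 1, like Gas5, but is not among the 24 tested genes nearest to Gas5. The 11 markers together ranged from 84.3 to 195 CPM in wildtype and from 2.58 to 3.75 CPM in mutant cultures. Prrx1 made up most of that sum in the wildtype cultures only. The other 10 markers summed to 0.787, 1.1997 and 27.7 CPM in β1-WT-GFP and to 3.56, 3.65 and 2.58 CPM in β1-K794Q-GFP, with Postn, Dcn, Lum, Twist1 and Thy1 at 0 in all 6 cultures. The part of these markers in the level of Gas5 was not tested.

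Snord47, counted as a gene of its own, followed its host. It had 32, 36 and 35 reads in β1-WT-GFP and 16, 8 and 16 in β1-K794Q-GFP, or 2.80, 3.60 and 2.44 CPM against 1.54, 0.790 and 1.38 CPM. The groups did not overlap, and edgeR gave a log2 fold change of -1.24 ± 0.42 (SE) with an unadjusted p of 0.0246 and an adjusted p of 0.375. The call was kept in 2 of the 6 fits with 1 culture left out, and with the regional level in the fit it was -0.71 with an unadjusted p of 0.138 in edgeR. Reads of the unspliced host can also cover a snoRNA, so these reads need not come from the mature snoRNA. Of the 8 snoRNAs annotated inside Gas5, Snord47 was the one with a row.

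The Snhg hosts were counted far less often than Gas5, at 46 to 373 reads per culture. Snhg12, at chr4:132308623-132311024 on the plus strand, hosts both H/ACA and C/D snoRNAs. It had 11.98, 9.997 and 10.7 CPM in β1-WT-GFP and 8.76, 4.54 and 9.46 CPM in β1-K794Q-GFP. The mutant cultures all lay below the wildtype cultures, most of all culture B, yet the log2 fold change of -0.52 ± 0.34 (SE, adjusted p = 0.708 in edgeR) did not reach 2-fold.

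Snhg5, at chr9:88521050-88522929 on the minus strand, is a host of a pair of box C/D snoRNAs. Its 17.6, 14.7 and 24.4 CPM in β1-WT-GFP stood beside 11.3, 8.29 and 18.7 CPM in β1-K794Q-GFP, and the groups overlapped through mutant culture C. The means were 18.9 ± 5.01 and 12.7 ± 5.34 CPM, with a log2 fold change of -0.57 ± 0.37 (SE) and an interval from -1.46 to 0.32. With 1 culture left out the value of Snhg5 stayed between -0.95 and -0.33, and that of Snhg12 between -0.71 and -0.25. Without wildtype culture C and mutant culture B together they were -0.091 for Snhg5 and -0.26 for Snhg12.

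Snhg1, at chr19:8723475-8726443 on the plus strand, hosts box C/D snoRNAs. It had 18.1, 19.3 and 26.0 CPM in β1-WT-GFP and 21.5, 12.04 and 23.4 CPM in β1-K794Q-GFP. The groups overlapped, and the log2 fold change of -0.16 ± 0.31 (SE), with an interval from -0.91 to 0.60, turned to 0.03 without wildtype culture C, to 0.09 without mutant culture B and to 0.28 without both. No direction can therefore be given for Snhg1.

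Snhg3, at chr4:132348014-132353686 on the minus strand and 36989 bases from Snhg12, hosts the H/ACA snoRNAs Snora73a and Snora73b. It was close to constant in β1-WT-GFP cells, with 7.44, 7.70 and 7.66 CPM, and less so in β1-K794Q-GFP cells, with 7.51, 4.74 and 8.94 CPM. The log2 fold change of -0.10 ± 0.31 (SE) turned to 0.12 without mutant culture B and to 0.14 without it and wildtype culture C. Its annotated span overlaps that of Rcc1 on the same strand, a gene with 19.8, 19.0 and 46.4 CPM in β1-WT-GFP and 30.9, 22.1 and 27.4 CPM in β1-K794Q-GFP. Reads that match both genes may therefore have been left out of both counts.

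Snhg8, at chr3:123507552-123508404 on the minus strand, is the host of Snora24 and was the one member with a positive difference. It measured 9.01, 7.70 and 4.94 CPM in β1-WT-GFP and 10.0, 6.91 and 10.5 CPM in β1-K794Q-GFP. The lowest value was that of wildtype culture C, and the groups overlapped through mutant culture B. The means of 7.22 ± 2.07 and 9.14 ± 1.95 CPM gave a log2 fold change of 0.34 ± 0.33 (SE), with an interval from -0.46 to 1.14, and 0.31 without wildtype culture C and mutant culture B.

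**Figure D4:**
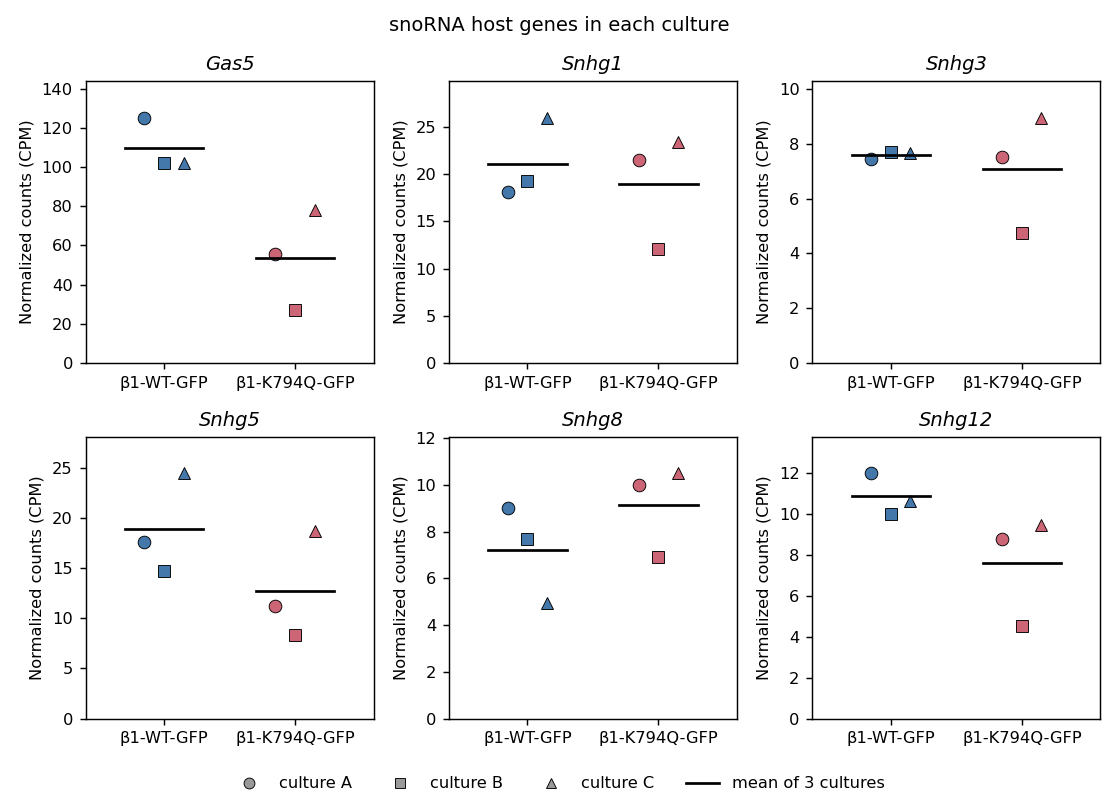
CPM of the 6 snoRNA host genes (y axes, each from 0) in each of the 6 cultures, by group, with the group mean as a line. Gas5 and Snhg12 are the panels in which all mutant cultures lie below all wildtype cultures, and mutant culture B is the lowest point in Gas5, Snhg1, Snhg3, Snhg5 and Snhg12.

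Mutant culture B was the lowest of the 6 cultures in 5 of the 8 genes, namely Gas5, Snhg1, Snhg3, Snhg5 and Snhg12, where 22.2% of all tested genes have it as the lowest. Wildtype culture C was the lowest in the other 3, Malat1, Neat1 and Snhg8, against 25.5% of all genes. The 6 hosts together amounted to 189, 162 and 175 CPM in β1-WT-GFP and to 114, 63.5 and 149 CPM in β1-K794Q-GFP. Without Gas5 the sums were 64.1, 59.4 and 73.7 CPM against 59.0, 36.5 and 70.9 CPM, which overlapped. Gas5 alone made up 66.1%, 63.2% and 58.0% of the host sum in the wildtype cultures and 48.4%, 42.5% and 52.4% in the mutant cultures.

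Per length of annotated exon, Malat1 was the most abundant of the 8 genes, with a mean of 5210 RPKM (CPM per kilobase) in β1-WT-GFP and 3390 RPKM in β1-K794Q-GFP. Neat1 followed with 37.1 and 18.6 RPKM and Gas5 with 29.2 and 14.2 RPKM. These neighbours in the order overlapped, since Neat1 ranged from 11.1 to 60.3 RPKM and Gas5 from 27.1 to 33.3 RPKM over the wildtype cultures. The remaining hosts lay lower on this scale, from 10.9 RPKM for Snhg5 to 4.53 RPKM for Snhg12 in β1-WT-GFP and from 10.7 RPKM for Snhg8 to 3.16 RPKM for Snhg12 in β1-K794Q-GFP. Lengths came from GENCODE M21, which may differ from the annotation behind the counts, and in Snhg1, Snhg8 and Snhg12 its exons jointly cover the whole span, introns of the spliced forms included. They cover most of the span in Gas5 (3760 of 4118 bases) and Snhg5 (1730 of 1880), against 986 of 5673 bases in Snhg3.

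Among the hosts, Gas5 followed Snhg12 most closely over the 6 cultures, with a Pearson r of 0.970 on log2 levels, then Snhg5 with 0.846 and Snhg3 with 0.784. With Snhg8 its r was -0.005. Over the 9147 genes with a mean of at least 10 CPM, the pattern most like that of Gas5 was that of Tmem132a and Ublcp1 (r = 0.993 each), and most like that of Snhg12 was that of Foxp4 (0.996) and Wdr4 (0.991). Malat1 was matched best by Zfp595 (0.998) and Lrif1 (0.996), and Neat1 by Atat1 (0.992) and Ypel3 (0.990). The closest genes were Kat7 and Wdr5 for Snhg1 (0.993 and 0.992), Lphn1 and Pot1b for Snhg3 (0.994 and 0.991), Polg and Ptbp2 for Snhg5 (0.995 and 0.990), and Zfp398 and Galnt18 for Snhg8 (0.991 and 0.988). These values are the highest of many over 6 points that share their libraries, and they describe the pattern only.

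The other snoRNA rows inside these hosts did not pass the criteria or were not tested. Snord22, inside Snhg1, had 2.71, 2.199 and 2.79 CPM in β1-WT-GFP and 6.35, 2.76 and 4.56 CPM in β1-K794Q-GFP, a log2 fold change of 0.83 ± 0.41 (SE) that did not pass the criteria (adjusted p = 0.591 in edgeR). Snord22 passed them without mutant culture B, at 1.09 with an unadjusted p of 0.0232 in edgeR, and without wildtype culture C as well, at 1.16 with an unadjusted p of 0.0157 in edgeR. Snora61, inside Snhg12, had 21, 9 and 9 reads against 19, 3 and 16 reads. Snora16a, Snora44 and Snord99, also inside Snhg12, had 55, 57 and 42 reads over all 6 cultures and were too few to test, and Snora24, inside Snhg8, had 0. Over all 119 snoRNA and scaRNA rows, 40 were tested, with a median of 0.05, and 2 passed the criteria, beside 5.19% of all tested genes. These were Snord47 in the lower and Snord15a in the higher direction (1.08 ± 0.36). The call of Snord15a held in 2 of the 6 fits with 1 culture left out, and it was lost at 0.95 with the regional level in the fit.

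Other non-coding snoRNA hosts, such as Snhg7, Snhg15 and Zfas1, were read from the same fit. Of 13 with a row, 10 were tested. In the lower direction 1 passed the criteria and in the higher 0, beside 1.71% and 3.48% of all tested genes. Of the 10, 8 had a negative log2 fold change, with a median of -0.28 beside -0.02 over all genes. Mutant culture B was the lowest in 8 of the 10. Snhg7 was the gene that passed, with 12.6, 12.5 and 7.73 CPM in β1-WT-GFP and 5.68, 4.05 and 5.76 CPM in β1-K794Q-GFP. Its log2 fold change was -1.08 ± 0.32 (SE), with an unadjusted p of 0.0131 and an adjusted p of 0.292 in edgeR. Its call held in 3 of the 6 fits with 1 culture left out. The highest value of the list was 0.69, for Snhg15, which passed the criteria without wildtype culture C and mutant culture B, at 1.11 with an unadjusted p of 0.00468 in edgeR.

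The protein-coding snoRNA hosts, mostly genes of ribosomal proteins and translation factors, had small differences. Of 25, 0 passed the criteria, beside 5.19% of all tested genes, and 0 had an unadjusted p at or below 0.05 in edgeR or in DESeq2. A negative value was found for 21, and the median was -0.21. The values ran from -0.49 for Dkc1, the pseudouridine synthase of H/ACA particles, to 0.63 for Eef2, an elongation factor. Mutant culture B was the lowest in 3 of these 25.

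Other nuclear long non-coding RNAs went in both directions. Of 10 tested, 5 were negative and 5 positive, and the median was -0.03. The 2 that passed the criteria were both higher in β1-K794Q-GFP cells, beside 3.48% of all tested genes called in that direction. Ftx, a gene of the X-inactivation centre, had 3.85, 3.70 and 2.72 CPM in β1-WT-GFP and 18.4, 5.72 and 19.8 CPM in β1-K794Q-GFP. Its log2 fold change was 2.10 ± 0.51 (SE), and its call held in all 6 fits with 1 culture left out. The adjusted p of Ftx was 0.208 in edgeR's quasi-likelihood test, 0.0078 in DESeq2 and 0.0205 in the likelihood ratio test. Airn, the antisense RNA of the imprinted Igf2r locus, had 2.71, 1.3996 and 0.487 CPM against 4.04, 4.44 and 5.68 CPM (1.62 ± 0.63, adjusted p = 0.441), and its call held in 2 of the 6. Tug1 stood higher in every mutant culture, with 174, 154 and 197 CPM against 125, 142 and 111 CPM, but by less than 2-fold (0.47 ± 0.18).

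Genes of the proteins that act with these RNAs did not pass the criteria in edgeR or DESeq2, where edgeR calls 5.19% of all tested genes. This held for 14 of 14 core and assembly proteins of snoRNA particles (median -0.13, from -0.60 for Rrp9 to 0.31 for Nop56), for 16 of 16 paraspeckle proteins (median -0.10, from -0.33 for Tardbp to 0.62 for Cpsf6), for 14 of 14 splicing factors of nuclear speckles (median -0.19, from -0.75 for Tra2a to 0.12 for Acin1) and for 10 of 10 factors of nonsense-mediated decay (median -0.07). At an unadjusted p of 0.05 or less, 1 of the speckle factors, Tra2a, would count, and 0 of the snoRNA particle and paraspeckle proteins. Mutant culture B was the lowest in 10 of the 14 proteins of snoRNA particles and in 9 of the 14 speckle factors. Rmrp, the RNA of RNase MRP, stood at 854, 385 and 731 CPM in β1-WT-GFP and at 1361, 734 and 1071 CPM in β1-K794Q-GFP, and its difference of 0.69 ± 0.39 (SE, log2) did not pass either.

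**Figure D5:**
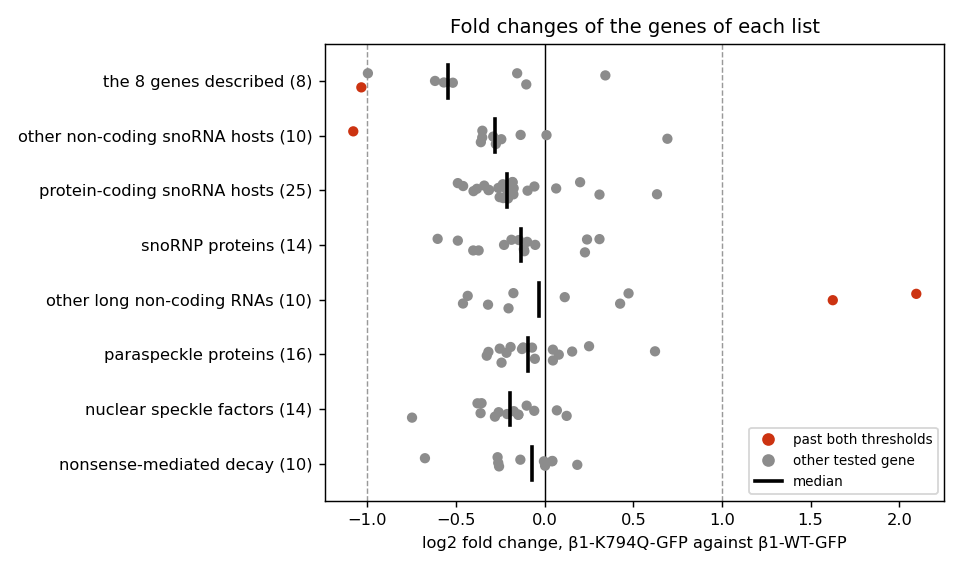
Log2 fold change of β1-K794Q-GFP over β1-WT-GFP cells (x axis, dashed lines at 2-fold) for each tested gene of the 8 genes and of 7 lists of related genes (y axis, with the number tested), with list medians as bars and genes past both criteria in red. The medians run from -0.54 for the 8 genes to -0.03 for the other long non-coding RNAs, which hold Ftx and Airn on the right.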

How the data were processed

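Total RNA of 3 β1-WT-GFP and 3 β1-K794Q-GFP cultures was sequenced after depletion of ribosomal RNA with Illumina Ribo-Zero plus. The deposited values are counts of reads per gene symbol made by the authors, not normalized, in 6 columns named for their cultures, with 0 further columns of per-sample values. The submitters' processing notes name bcl2fastq 2.20.0, STAR 2.7.4a, HTSeq 0.9.1, edgeR 3.38.4 and mm10. The annotation, the strand setting of the counting and which of the study's sequencing runs the table holds are not given in the sources used here. HTSeq by default leaves out reads that match more than 1 gene or place, which can lower the counts of genes that overlap others.

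These counts went into edgeR 4.0.16 under R 4.3.3 (filterByExpr, TMM, glmQLFit and glmQLFTest, two-sided), which left 11608 genes, with a common dispersion of 0.186. A gene was called at a fold change of at least 2 with an unadjusted p of at most 0.05, the study's criteria, and p-values with Benjamini-Hochberg adjustment across the tested genes are given beside it. SE is the log2 fold change divided by the square root of F. CPM are counts scaled to the TMM-normalized library size. RPKM used exon lengths of GENCODE M21. Pearson r used log2(CPM + 1). The scripts were tested on simulated data. The depth per culture was 10918600, 9589826 and 15287191 counts in β1-WT-GFP and 10203916, 11197729 and 11071680 in β1-K794Q-GFP, so that a count of 0 allows up to 3 counts, or 0.196 to 0.313 CPM by library total. The Wilson intervals of the shares and this limit cover counting error only, while the edgeR intervals also take in the spread between cultures.

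The 8 genes, the lists of related genes and the markers were chosen with earlier results of these data known. Named genes are the 8 genes, list members past both criteria or at the ends of their list's range, snoRNA rows, the called neighbours and Zbtb37 (these named after their values were seen), and for each of the 8 the 2 genes of at least 10 CPM with the highest r. Alternatives were other filters, RLE and library-total scaling, DESeq2 1.42.0, the likelihood ratio test, a replicate block, the regional level as an offset, and leaving out each culture or both cultures that stood apart. Sequences and starts were read from RefSeq and GENCODE tables of GRCm38, to which 21737 symbols of the table matched directly, 1255 by a synonym and 248 by RefSeq, and 180 did not match. Snhg15 is listed in the table as Gm11974. Mitochondrial genes, Snhg14, Hotairm1, Rn7sk, Rn7s1, Rn7s2, Rny1, Rny3 and Hbb-bt were not analysed here. The range of the nonsense-mediated decay factors is not reported here. Figures were drawn with matplotlib 3.10.9.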

Additional observations from a re-analysis of the deposited data

How the results depend on the processing

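Over all tested genes, 603 passed both criteria, 916 with no filter on low counts, 1661 without both wildtype culture C and mutant culture B, and 501 to 992 with 1 culture left out, 992 without wildtype culture C and 942 without mutant culture B. The share of higher calls was 67.0% and ranged from 59.7% without mutant culture C to 73.9% with at least 10 counts in every culture. Of the 8 genes 1 passed, and 0 to 2 with 1 culture left out. With the regional level in the fit 0 passed. Without wildtype culture C the 2 that passed were Malat1 and Neat1, without both cultures that stood apart the 1 was Neat1, and without mutant culture C the 1 was Gas5. Of the listed genes 3 passed, Snhg7, Ftx and Airn, 1 to 3 with 1 culture left out, and 4 without both cultures that stood apart, Snhg15 in addition. Snhg5, Snhg8 and Snhg12 kept their direction and did not pass in any of the 15 alternatives run.

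The log2 fold change of Gas5 ran from -1.41 to -0.71 with 1 culture left out and was -0.75 without both and -0.53 with the regional level, and Gas5 passed in the 7 settings of filter, scaling, test and block. Snhg1 ran from -0.33 to 0.088 and was 0.28 without both, Snhg5 was -0.091 without both, and Snhg3 ran from -0.31 to 0.12 and was 0.14 without both. Malat1 ran from -1.08 to -0.16 and Neat1 from -1.42 to -0.46. Among other genes named, Tug1 was -0.37, Zbtb37 0.016 and Cpsf6 -0.34 with the regional level, Dkc1 ran from -0.805 to 0.43 with 1 culture left out, 0.43 without wildtype culture C, and was 0.72 without both, and Acin1 was -0.028 without both. With the replicate block, Rpph1 passed at 1.14 and Snord15a no longer passed at 1.09. The causes were not tested.

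The culture letters gave no clear pairing of the samples. Same-lettered cultures' deviations from their group means correlated weakly, at 0.095, 0.055 and 0.095, and those of different letters from -0.152 to 0.095. Not every culture correlated best with its own letter, and these values do not settle whether the letters pair the cultures. With a replicate block 571 genes and 1 of the 8 passed, with Gas5 at -1.16, Malat1 at -0.28 and Neat1 at -0.74. The Snhg hosts had 46 to 373 reads per culture. Their 95% intervals in edgeR lay between -1.46 and 1.14 on the log2 scale, and each included no change. Differences inside the interval of a gene remain compatible with these data.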
